A study of Homo sapiens with 4 samples.

Results

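The genes described here are 56 of the genes that encode proteins of the cytosolic ribosome, out of 20136 protein-coding genes in the annotation. They were fixed as a list of gene symbols, of which 34 encode proteins of the large subunit, 3 encode proteins of the stalk of the large subunit and 19 encode proteins of the small subunit. They lie on 17 chromosomes. A gene was given every peak that reached within 1 kb of any of its annotated transcription start sites (TSS) in hg19, and the best-scoring of these peaks stood for the gene in that library. The peaks came from ATAC-seq, which uses the transposase Tn5 to place sequencing adapters in open chromatin. The cells were HL-60, an ATCC line from the peripheral blood of a person with acute promyelocytic leukemia. The paper names the China Infrastructure of Cell Line Resources as their supplier. Cells of the ATRA group were given 1 µM all-trans retinoic acid, dissolved in ethanol, for 4 days. Cells of the control group were given an equal amount of ethanol for the same time, and in both groups the medium and the additive were renewed at day 2. Each group had 2 replicates, and both groups were grown in the same medium with serum.

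Ribosomal proteins assemble with ribosomal RNA in the nucleolus, and the finished subunits carry out translation in the cytoplasm. Their genes are active in nearly all cells and are scattered over the genome, so that a balanced supply of the proteins depends on many separate promoters. Most of their messenger RNAs begin with a cytosine followed by an unbroken run of pyrimidines, called the 5′ terminal oligopyrimidine tract, through which the growth-regulating kinase mTOR controls their translation. ATRA, a ligand of the retinoic acid receptors, makes HL-60 cells stop dividing and mature toward granulocytes.

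The promoter sequences are shown first because they are what these genes share outside the rule that chose them. A pyrimidine tract was counted where a run of at least 6 C or T on the sense strand touched the 5 bases on either side of the main TSS, which was the start of the MANE Select transcript where there was one. Such a tract was present in 48 of the 56 genes (85.7%), compared with 21.3% of the other protein-coding genes and 20.8% of the other genes with a peak in all 4 libraries. The median tract was 11 bases long, against 3 bases in the other genes, and the longest was the 25-base tract of RPL7A. A cytosine was the first transcribed base in 48 of the 56 genes (85.7%) and in 10.6% of the other genes. Of the 8 genes with no tract at the annotated start, 7 had a run of at least 6 pyrimidines that began within the next 30 bases, as did 14.2% of the other open genes that lacked a tract. The sequences below run from 30 bases before the main TSS to 14 bases after it, 5′ to 3′ on the strand of the gene, with the pyrimidine run at the start site in capitals. The first 6 genes have a tract and include RPL5 and RPS6, which were alike in both groups, and 4 of the genes with the largest differences between them, and RPL4 and RPS15 show an annotated start with only a short run.
RPL5, a partner of 5S ribosomal RNA, chr1:93297567-93297611, plus strand: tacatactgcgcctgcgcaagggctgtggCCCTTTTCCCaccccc
RPS6, the substrate of S6 kinase, chr9:19380220-19380264, minus strand: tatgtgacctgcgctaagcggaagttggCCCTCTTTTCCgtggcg
RPL23, chr17:37009960-37010004, minus strand: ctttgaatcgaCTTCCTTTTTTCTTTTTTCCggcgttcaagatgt
RPLP1, a stalk protein, chr15:69745127-69745171, plus strand: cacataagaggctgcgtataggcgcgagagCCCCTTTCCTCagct
RPS10, chr6:34393832-34393876, minus strand: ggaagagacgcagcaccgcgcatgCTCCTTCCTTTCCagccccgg
RPS19, chr19:42364295-42364339, plus strand: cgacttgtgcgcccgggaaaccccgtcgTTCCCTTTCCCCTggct
RPL4, chr15:66797179-66797223, minus strand: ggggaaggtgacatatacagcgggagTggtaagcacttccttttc
RPS15, chr19:1438365-1438409, plus strand: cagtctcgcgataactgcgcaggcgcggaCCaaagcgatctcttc

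Motifs were searched as exact letters in the 300 bases from 250 before the main TSS to 50 from it on, on both strands except for the TATA box. The ETS letters CCGGAAG were found in 22 of the 56 genes (39.3%), compared with 13.9% of the other genes and 22.4% of the other genes with a peak in all 4 libraries. The YY1 letters AAGATGGC were found in 6 genes (10.7%, against 4.00% and 6.40%). The GC box GGGCGG was found in 33 genes (58.9%, against 61.0% and 72.7%), the E-box CACGTG in 4 (7.14%, against 8.74% and 10.7%) and the NRF1 core GCGCATGC in 3 (5.36%, against 4.25% and 6.51%). A TATA box, TATAAA on the sense strand from 40 to 20 bases upstream, was found in 2 genes, RPLP0 and RPS2 (3.57%, against 3.88% and 1.72%). None of these motifs contains another, and the ETS and YY1 letters can share their AAG. The GC content of the window had a median of 59.3% in the ribosomal protein genes, 63.7% in the other genes and 65.3% in those with a peak in all 4 libraries. A match describes the letters only and is not a measured binding site. Longer stretches are given for a pair of genes at the ends of the comparison between groups, from 150 bases before the TSS to 14 after it. In RPL26 the ETS letters are in capitals, 19 bases upstream of the TSS, and in RPS3 the capitals are a GC box read on the opposite strand, 17 bases upstream.
RPL26, the only one of the 56 genes with a peak in both ATRA libraries and in neither control library, chr17:8286497-8286661, minus strand: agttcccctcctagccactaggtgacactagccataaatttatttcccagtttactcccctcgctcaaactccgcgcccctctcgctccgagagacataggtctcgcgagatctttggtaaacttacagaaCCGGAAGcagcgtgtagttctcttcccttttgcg
RPS3, the only one of the 56 genes with both ATRA libraries below both control libraries in score percentile, chr11:75110412-75110576, plus strand: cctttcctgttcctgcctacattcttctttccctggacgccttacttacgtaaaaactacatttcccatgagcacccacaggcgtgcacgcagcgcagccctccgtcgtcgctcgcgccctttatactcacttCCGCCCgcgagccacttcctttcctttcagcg

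**Figure D1:**
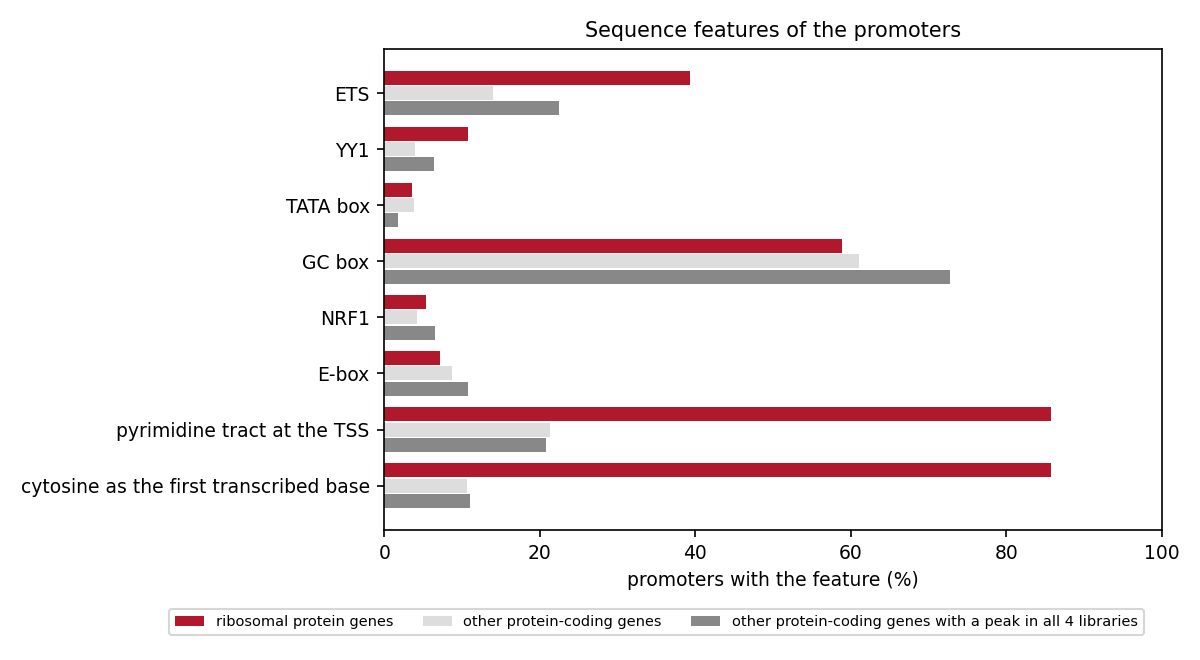
Percentage of promoters with each sequence feature (horizontal axis) among the 56 ribosomal protein genes (red), all other protein-coding genes (light grey) and other genes with a peak in all 4 libraries (dark grey). The red bar is the longest of its 3 for the pyrimidine tract and the first transcribed cytosine (85.7% each), for ETS (39.3%) and for YY1 (10.7%).

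The 4 lists differed in length, which bears on every value below. ATRA replicate 1 had 43494 peaks, ATRA replicate 2 had 63541, control replicate 1 had 42081 and control replicate 2 had 45903, with median widths of 328, 416, 325 and 291 bp. Scores ran from 50.0 to 3100 in every list and had no stated scale, so each was turned into its percentile among the scores of its own list, where 100 is the best. The lists hold no read counts, and depth was therefore unknown. Of 10 myeloid markers, 6 to 8 had a promoter peak in a library, and SPI1, CEBPE, CD33, LYZ and CTSG had one in all 4, whereas the granule protein genes ELANE and AZU1 had none. Among markers of other blood and epithelial cells, the B cell gene CD79A had a peak in all 4 lists and the keratin gene KRT8 in 3, and CD3E, CD3D, CD2, MS4A1, HBB, HBA1, EPCAM and CDH1 had no peak in any list.

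Promoters of ribosomal protein genes were open in nearly every library. All 56 had a peak in both ATRA replicates, 54 had one in control replicate 1 and 51 in control replicate 2. A peak in all 4 libraries was found for 50 genes (89.3%), where the share of all protein-coding genes was 46.2%, and none of the 56 lacked a peak throughout. Of the other protein-coding genes, 9251 of 20080 (46.1%) had a peak in all 4 libraries and 7777 had none. The 6 genes without a full set had peaks in both ATRA libraries and were without a peak in 1 or both control libraries (6 of 56, against a background of 7.72% of all genes). In the opposite direction, 0 of the 56 had peaks in both control libraries and lacked one in an ATRA library (background 1.54%). Both backgrounds include the 7777 genes with no peak in any list, which could not be counted in either direction. The 78 mitochondrial ribosomal protein genes were open nearly as often, with a peak in all 4 libraries in 68 (87.2%). In 8 of the 78, both ATRA libraries had a peak and 1 or both control libraries did not.

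The peaks of these genes sat squarely on the start site. The best peak covered the main TSS in 53 of 56 genes in ATRA replicate 1 (94.6%), 55 of 56 in ATRA replicate 2 (98.2%), 50 of 54 in control replicate 1 (92.6%) and 44 of 51 in control replicate 2 (86.3%). The same share in other genes with a peak in all 4 libraries was 76.8%, 77.6%, 74.5% and 66.3%. The median centre of the covering peaks lay upstream of the TSS, at positions -99.0, -104.5, -102.75 and -96.75 bp in the 4 libraries, and in the other genes at -84.0, -93.5, -81.5 and -87.5 bp. Counted over any peak, the TSS itself was covered in 98.2%, 100%, 92.9% and 85.7% of the ribosomal protein genes in ATRA replicates 1 and 2 and control replicates 1 and 2. Among best peaks that covered the main TSS, the median reach downstream was 173, 287, 150 and 121 bp in the same order. In the other genes with a peak in all 4 libraries it was 204, 297, 187 and 140 bp. Counted over any peak, few of the ribosomal protein genes were covered far into the gene. At 500 bp downstream of the TSS, 1.79%, 12.5%, 3.57% and 1.79% were covered in the same order, compared with 14.3%, 28.8%, 16.0% and 12.0% of the other genes. At 500 bp upstream the shares were 32.1%, 50.0%, 28.6% and 26.8%, close to the 28.8%, 45.3%, 28.7% and 24.1% of the other genes. These genes have more annotated start sites than most, with a median of 8 against 5 over all genes, and 17 of the 56 have a start site of another coding gene in the window, such as ZWILCH beside RPL4 and SUPT5H beside RPS16.

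**Figure D2:**
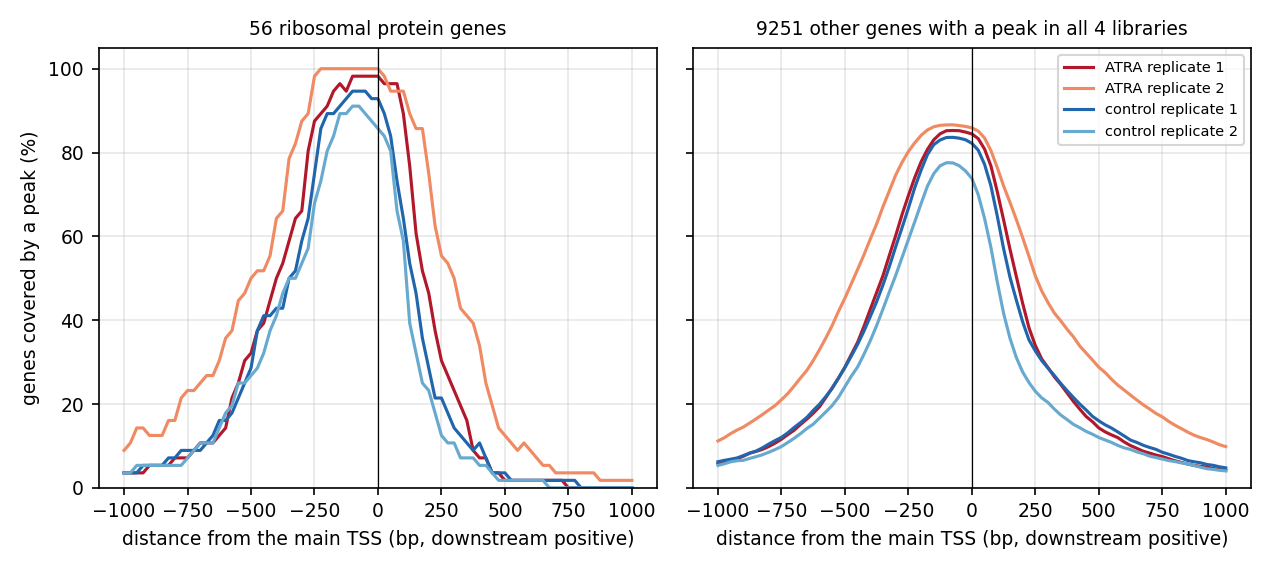
Percentage of genes covered by a peak (vertical axis) at each distance from the main TSS (horizontal axis, bp) in the 4 libraries, for the 56 ribosomal protein genes (left) and 9251 other genes with a peak in all 4 libraries (right). The left curves reach 91.1% to 100% and drop to 12.5% or less by 500 bp downstream, where the right curves are still at 12.0% to 28.8%.

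In level the open ribosomal protein promoters resembled other open promoters. Over the 50 genes with a peak in all 4 libraries, the median score percentile was 89.9 in ATRA replicate 1, 88.5 in ATRA replicate 2, 82.1 in control replicate 1 and 74.4 in control replicate 2. The 9251 other genes had medians of 87.3, 90.1, 85.5 and 81.1. The best peak was in the top 10% of its list for 25, 24, 19 and 12 of the 50 genes, and no ribosomal protein gene reached the highest score of a list. The mean of the library medians was 89.2 ± 0.941 (SD, n = 2) in the ATRA group and 78.2 ± 5.44 (SD, n = 2) in the control group. Both ATRA medians were above both control medians, but an exact permutation test over 2 and 2 libraries cannot give a p-value under 0.333, which was the value here (two-sided). In the other genes the mean was 88.7 ± 2.00 in the ATRA group and 83.3 ± 3.14 in the control group (SD, n = 2, exact permutation p = 0.333). The lower level of the ribosomal protein genes relative to the others was thus seen in both control libraries and in ATRA replicate 2, and not in ATRA replicate 1.

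The widths of their peaks were likewise ordinary. The median was 627.5, 802, 513.5 and 471.5 bp in ATRA replicates 1 and 2 and control replicates 1 and 2, compared with 608, 818, 569 and 474 bp in the other open genes. The group means of these medians were 714.75 ± 123 bp and 492.5 ± 29.7 bp (SD, n = 2, two-sided exact permutation p = 0.333). As a percentile of the widths in its own list, which takes out the wider peaks of ATRA replicate 2, the median was 87.2, 88.5, 79.4 and 81.1. Single best peaks ranged from 179 bp at RPS19 in control replicate 2 to 2107 bp at RPS12 in ATRA replicate 2.

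**Figure D3:**
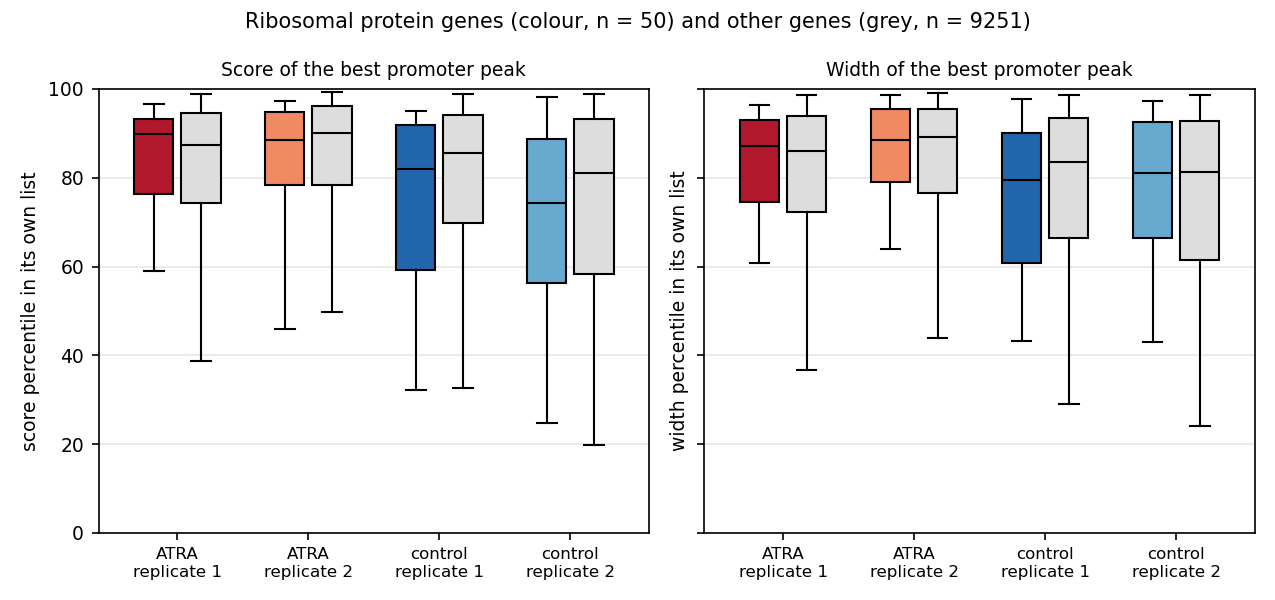
Score percentile (left) and width percentile (right) of the best promoter peak in each library, for the 50 ribosomal protein genes (colour) and 9251 other genes (grey) with a peak in all 4 libraries; lines are medians, boxes quartiles and whiskers the 5th and 95th percentiles. The coloured medians of score are 89.9 and 88.5 in the ATRA libraries and 82.1 and 74.4 in the control libraries.

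Set gene by gene, the ATRA group ranked higher at most of these promoters. The difference between the mean score percentiles of the ATRA and control libraries had a median of 7.99 percentile points over the 50 genes (quartiles 1.59 and 16.5), compared with 3.40 over the other open genes. With an equal number of peaks per list the median difference was 4.45 points, and without control replicate 2 it was 4.90. Its excess over the other genes, 4.59 points, was 2.93 points with equal numbers and 1.54 points without ATRA replicate 1, where the other genes had a median difference of 4.84. The ATRA mean was the higher in 42 genes and the lower in 8. In the 9251 other open genes it was the higher in 6806 and the lower in 2445. Both ATRA libraries lay above both control libraries in 29 of 50 genes (58.0%, background 38.3% of all genes with a peak in all 4 libraries). Both lay below in 1 gene, RPS3 (2.00%, background 7.27%). The difference exceeded 10 points upward in 20 genes, 20 points in 11 and 30 points in 6. It was within 5 points in 21. No gene was lower by over 10 points, although RPL13 (-16.5 points) and RPS3 (-14.0 points) were with equal numbers of peaks. In the other open genes the upper quartile of the difference was 12.9 points, and their shares past these limits are not given here. For width percentile the median difference was 5.82 points, against 2.77 in the other genes, and it was 3.83 points with equal numbers of peaks. Both ATRA libraries were above both controls in width percentile in 20 genes (background 29.3%) and below in 3 (background 9.85%). When each list was reduced to an equal number of its best peaks, 48 genes kept a peak in all 4 libraries. Of these, 18 had both ATRA libraries above the controls (37.5%, against 26.8% of other genes), all of them among the 29. Both were below in 4 of the 48, RPL31, RPL35, RPS3 and RPS25, and the share of other genes below is not given at that number. The excess over other genes in the share with ATRA above, 19.8 percentage points, was 12.5 without ATRA replicate 1 and 9.71 without control replicate 1. More opening in each cell, opening in a larger share of the cells and a difference in depth cannot be told apart in these libraries.

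**Figure D4:**
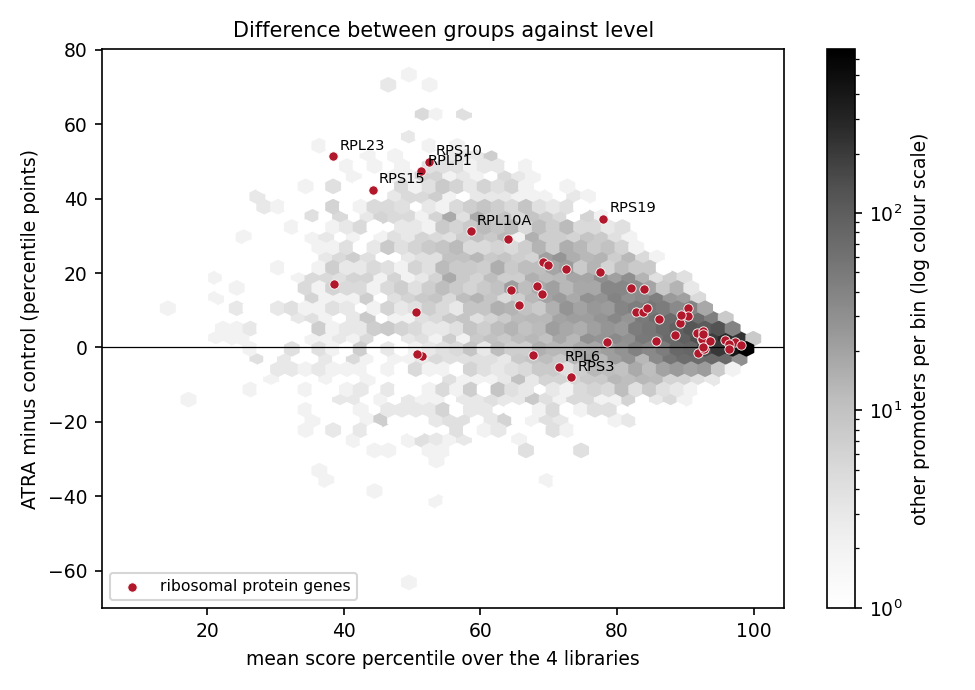
Difference in score percentile between the ATRA and control means (vertical axis, percentile points) against the mean over the 4 libraries (horizontal axis), for 50 ribosomal protein genes (red points) over the density of the 9251 other genes (grey, log colour scale). Of the 50 red points, 42 lie above 0, as do 6806 of the 9251 other genes. The highest red points are RPL23, RPS10 and RPLP1 at 51.4, 49.9 and 47.3 points, and RPS3 is the lowest at -7.93.

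Because percentiles near the top of a list have little room to differ, the genes were also compared within ranges of the mean percentile over the 4 libraries, a division chosen after seeing the data. Both ATRA libraries were above both controls in 2 of 2 ribosomal protein genes with a mean under 40, in 4 of 7 from 40 to 60, in 9 of 14 from 60 to 80, in 7 of 10 from 80 to 90 and in 7 of 17 above 90. The shares in the other genes were 30.7%, 40.7%, 42.0%, 39.7% and 34.7% in the same ranges. The median difference in the range from 60 to 80 was 16.0 points, against 11.9 points in the other genes, and above 90 it was 1.91 against 0.713. When all open genes were divided into 4 equal classes of GC content, the lowest class, up to 59.3%, held 26 of the 50 genes. Both ATRA libraries were above in 17 of these (65.4%, against 36.9% of the other genes in that class). The second class gave 8 of 17 genes (47.1%, against 920 of 2300 other genes), the third gave 4 of 6 (66.7%, against 39.97%) and the fourth gave 0 of 1 (against 36.02%).

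Among the large subunit genes, 31 of 34 had a peak in all 4 libraries, with the ATRA libraries above in 18 (58.1%, background 38.3%) and below in 0 (background 7.27%) and a median difference of 6.48 points. RPL23, a protein that binds MDM2 when ribosome assembly is disturbed, had score percentiles of 58.5 and 69.7 in the ATRA libraries and 10.1 and 15.3 in the control libraries. Both control values were far below both ATRA values, and its difference of 51.4 points was the largest of all 50 genes. Its best peak was 366 and 592 bp wide in the ATRA libraries and 259 and 299 bp wide in the controls. RPL10A, a protein of the L1 stalk that guides the leaving tRNA, had percentiles of 63.2 and 85.2 with ATRA and 33.4 and 52.5 in the controls. The ranges did not overlap, and the difference was 31.2 points. RPL3, which lies near the peptidyl transferase center, had 82.1 and 79.1 with ATRA and 61.8 and 53.4 in the controls. Its replicates lay close together in each group, 23.0 points apart between the groups.

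RPL5 and RPL11 join 5S ribosomal RNA in a particle that can bind MDM2 and so link ribosome assembly to p53. RPL5 had percentiles of 92.3 and 96.7 in the ATRA libraries and 90.4 and 94.9 in the controls. It was high in every library and the groups overlapped. RPL11 had 78.5 and 64.4 with ATRA and 65.4 and 54.6 in the controls, so that ATRA replicate 2 was just below control replicate 1. RPL19, whose protein helps to bridge the subunits, was among the lowest of the set, with 49.4 and 44.6 against 31.2 and 28.8, and the groups did not overlap. RPL7A had 63.3 and 47.5 against 54.1 and 37.4, and its groups overlapped. With an equal number of peaks per list, RPL19 overlapped as well, with 47.7 and 16.4 against 31.2 and 22.4.

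The large subunit genes with the largest differences toward the control group were small ones that overlapped between the groups. RPL6 had percentiles of 58.5 and 79.2 in the ATRA libraries and 84.6 and 63.4 in the controls, a difference of -5.19 points, and its best peak was not the same peak in all libraries. RPL13 had 59.3 and 41.3 against 36.2 and 68.9, and RPL14 had 67.1 and 32.4 against 52.8 and 50.2. RPL31 and RPL35 encode proteins at the mouth of the exit tunnel. RPL31 had 60.1 and 73.1 against 64.6 and 72.8, with a difference of -2.08 points. RPL35 stood higher, with 92.1 and 90.3 against 92.0 and 93.3. In each of these genes the ATRA replicates lay farther apart than the group means. With an equal number of peaks per list the differences were larger, at -16.5 points for RPL13, -9.52 for RPL6, -8.37 for RPL31 and -3.80 for RPL35, and RPL31 and RPL35 then had both ATRA libraries below both controls. RPL14 had no peak left in ATRA replicate 2 at that number.

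Of the large subunit genes, 3 lacked a peak in a control library. RPL26, a protein at the exit tunnel that is modified by UFM1, had a peak only with ATRA, at percentiles of 43.3 and 67.9, at chr17:8286369-8286693 in replicate 1 and chr17:8286468-8287075 in replicate 2. RPL12, at the base of the stalk, had 51.9 and 67.7 with ATRA, 3.01 in control replicate 1 and no peak in control replicate 2. The score of that control peak was 52.6, close to the lowest listed score of 50.0. RPL4, which lines the exit tunnel, had 47.9 and 76.4 with ATRA, 9.32 in control replicate 1 and no peak in control replicate 2. A missing peak means only that no peak passed the threshold of the list. The other large subunit genes are given by range. Both ATRA libraries were above both controls in RPL8, RPL13A, RPL18, RPL21, RPL23A, RPL24, RPL27, RPL29, RPL30, RPL32, RPL34, RPL37 and RPL38, with differences from 2.23 to 29.3 points and mean percentiles from 64.1 to 92.6. The groups overlapped in RPL9, RPL22 and RPL28, with differences from 1.65 to 9.63 points and mean percentiles from 83.8 to 92.5. With equal numbers of peaks RPL21, RPL23A, RPL24, RPL27 and RPL32 overlapped between the groups as well.

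The 3 stalk genes, whose acidic proteins recruit elongation factors to the ribosome, all had both ATRA libraries above both control libraries (3 of 3, background 38.3%), with a median difference of 16.1 points. RPLP0, the stalk base that anchors the others, had percentiles of 90.9 and 88.9 in the ATRA libraries and 78.7 and 85.9 in the controls. RPLP1 had 79.7 and 70.2 with ATRA and 34.0 and 21.3 in the controls, a difference of 47.3 points, and its peaks were 737 and 807 bp wide against 316 and 271 bp. RPLP2 had 93.2 and 87.0 with ATRA and 76.0 and 72.1 in the controls. RPLP1 was thus the only stalk gene with low control values. Its best peak in control replicate 2 ran from -553 to -283 bp relative to the TSS and did not overlap the best peak of control replicate 1. With equal numbers of peaks RPLP0 overlapped between the groups, at 90.6 and 83.3 against 78.7 and 84.6, and RPLP1 and RPLP2 did not.

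Among the small subunit genes, 16 of 19 had a peak in all 4 libraries, with the ATRA libraries above in 8 (50.0%, background 38.3%) and below in 1 (6.25%, background 7.27%) and a median difference of 6.03 points. RPS10, a protein near the entry of the messenger RNA whose gene is mutated in some patients with Diamond-Blackfan anemia, had percentiles of 76.7 and 78.3 in the ATRA libraries and 8.10 and 47.0 in the controls. The ATRA replicates were alike and the control replicates far apart, and the difference was 49.9 points. RPS15, which reaches toward the decoding site, had 65.6 and 65.3 with ATRA and 39.2 and 6.74 in the controls. Its difference was 42.4 points, but its peak in control replicate 2 was lost with equal numbers of peaks. RPS19, the gene most often mutated in Diamond-Blackfan anemia, had 94.9 and 95.7 with ATRA and 77.4 and 43.8 in the controls. Its ATRA peaks were 927 and 797 bp wide and covered the TSS, whereas its best control peaks were 495 and 179 bp wide and ended at -343 and -43 bp. Each control library had 2 peaks in the window and each ATRA library 1. The best peaks of the control replicates did not overlap each other.

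The other well-known small subunit genes differed less. RPS14, whose loss of a copy underlies the anemia of the 5q deletion, had percentiles of 92.2 and 95.4 with ATRA and 90.1 and 80.0 in the controls, a difference of 8.79 points with no overlap. RPS6, which S6 kinase phosphorylates when growth signals are present, had 78.7 and 79.9 against 80.8 and 74.6, and the groups overlapped. RPS3, at the entry of the messenger RNA channel, had 64.2 and 74.3 with ATRA and 77.7 and 76.7 in the controls. Both ATRA values were the lower, with a difference of -7.93 points between the means, and the ATRA replicates lay farther apart than that. With equal numbers of peaks the difference was -14.0 points. The widths of its peaks overlapped between the groups, at 384 and 571 bp against 413 and 274 bp.

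The small subunit genes that lacked a peak in a control library were RPS2, RPS16 and RPS23. RPS2, near the entry of the messenger RNA, had percentiles of 59.7 and 75.0 with ATRA, 25.7 in control replicate 1 and no peak in control replicate 2. RPS16, whose tail touches the tRNA in the P site, had 83.0 and 82.8 with ATRA, 62.2 in control replicate 1 and no peak in control replicate 2. RPS23, a protein of the decoding center, had 15.3 and 84.4 with ATRA, no peak in control replicate 1 and 44.4 in control replicate 2. Of the 5 genes with a peak in exactly 3 libraries, RPS23 was the one that lacked control replicate 1, and in the other 4 the missing peak was that of control replicate 2. RPS23 was also the only one of them whose ATRA replicates lay on either side of its control value. Among the other small subunit genes, both ATRA libraries were above both controls in RPS9, RPS18, RPS24 and RPS27, with differences from 10.7 to 16.6 points. The groups overlapped in RPS3A, RPS7, RPS13, RPS20 and RPS25, which had mean percentiles from 88.5 to 98.1 and differences from -0.507 to 3.27 points. With equal numbers of peaks RPS24 and RPS27 overlapped between the groups as well, and RPS25 had both ATRA libraries below both controls.

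**Figure D5:**
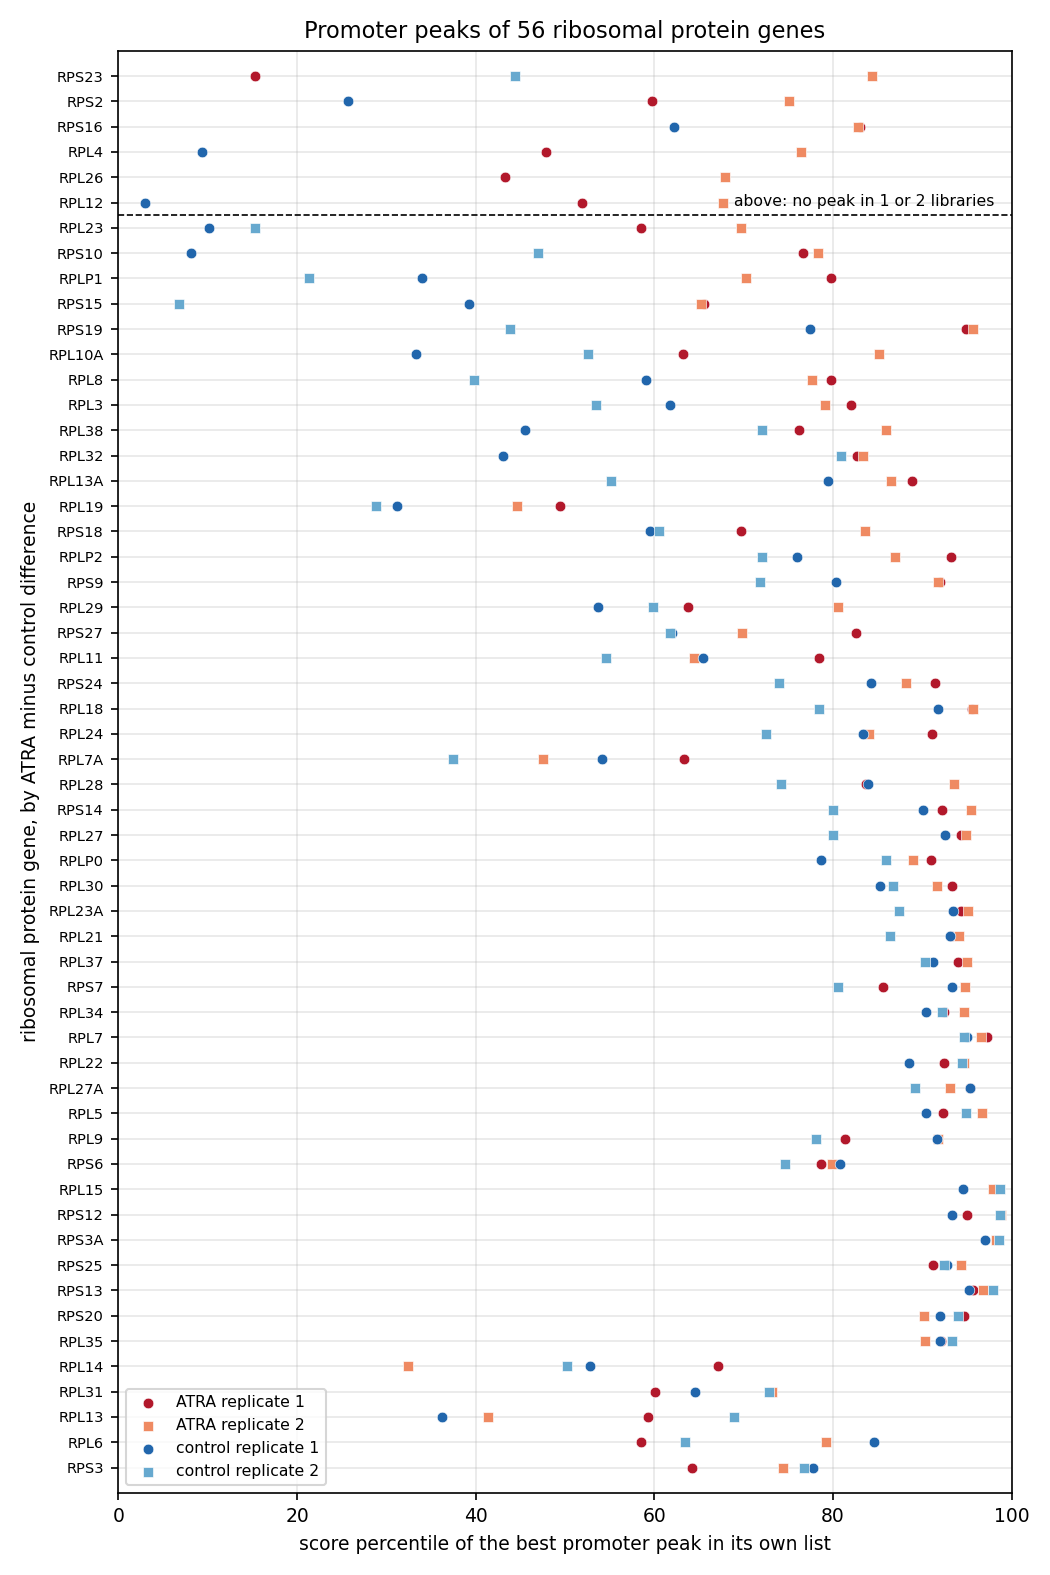
Score percentile of the best promoter peak in its own list (horizontal axis) for each of the 56 ribosomal protein genes (rows), with ATRA libraries in red and orange and control libraries in blue; rows are ordered by the difference between the group means, and the 6 genes above the dashed line lack a peak in 1 or 2 control libraries. The control points spread far to the left in RPL23, RPS10, RPLP1 and RPS15, and all points lie near the right edge in RPS3A, RPS12 and RPL15.

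The widest peaks belonged to genes near the top of the lists in all 4 libraries. RPS12 had peaks of 1413, 2107, 1608 and 1390 bp in ATRA replicates 1 and 2 and control replicates 1 and 2, at percentiles of 95.0, 98.8, 93.3 and 98.6. RPL7 had 1382, 1977, 1900 and 1075 bp, and RPL15, mutated in some patients with Diamond-Blackfan anemia, had 814, 1545, 896 and 891 bp. Both groups overlapped in width in each of these. The best peak of RPL27A, of 710, 1485, 1026 and 814 bp, lay more than 5 kb downstream of its main TSS at another annotated start. When only the main TSS was used, RPL27A had percentiles of 90.2, 82.7, 88.2 and 77.4 and was the only one of the 56 genes whose values differed. The narrowest peaks by the mean over libraries were those of RPL13, RPL19, RPS10 and RPL23. RPL13 had 230, 498, 301 and 332 bp, and RPL19 had 217, 671, 221 and 357 bp. RPS10 had 396, 528, 307 and 256 bp, with both ATRA peaks wider than both control peaks.

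Other genes of translation were examined by the same rule. The 23 cytosolic ribosomal protein genes outside the set resembled the 56, with a peak in all 4 libraries in 22, both ATRA libraries above the controls in 12 (54.5%, background 38.3%) and below in 0, and a median difference of 9.65 points. Of these, RPL41 had 54.9 and 68.5 with ATRA and 3.40 and 46.9 in the controls, and RPS28 had 77.1 and 59.1 against 54.6 and 10.1. The 20 ribosome biogenesis genes had 19 with a peak in all 4 libraries and a median difference of 9.23 points. Of the 19, 11 were above (57.9%, background 38.3%) and 1 was below (5.26%, background 7.27%). Among them POLR1C, a subunit of RNA polymerases I and III, had 79.4 and 87.5 against 57.7 and 61.9. The nucleolar protein gene NOP56 was the one below, with 47.3 and 15.4 against 59.6 and 54.8. Of 14 elongation factor and other genes whose messenger RNAs begin with a pyrimidine tract, 11 had a peak in all 4 libraries. Of these, 5 were above (45.5%, background 38.3%) and 0 below (background 7.27%), and the median difference was 1.75 points. These were mostly at the top of the lists already, such as TPT1 at 99.7, 99.0, 99.0 and 98.1.

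The paralogs of ribosomal protein genes and the mitochondrial ribosomal proteins served as a contrast. Of 8 paralogs, 6 had a peak in all 4 libraries, with a median difference of 1.93 points. RPL36AL and RPS27L were above (33.3%, background 38.3%) and 0 were below (background 7.27%). RPL3L and RPL10L, whose expression is restricted to muscle and to testis, had no peak in any library. Of the 78 mitochondrial ribosomal protein genes, 68 had a peak in all 4 libraries, 23 were above (33.8%, background 38.3%), 4 were below (5.88%, background 7.27%), and the median difference was 3.72 points. In width percentile the median difference was 7.16 points in the mitochondrial set and 5.82 points in the cytosolic one. These contrasts between gene lists were not tested, since genes are not replicates.

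Within the set, the 21 open genes with the ETS letters had a median difference of 10.6 points and a median level of 77.5, and the 29 without them had 4.36 points and 84.4. The 43 with a pyrimidine tract had a median difference of 7.64 points and the 7 without had 8.34 points. The medians were 8.34 points in the 29 genes with the GC box and 7.64 points in the 21 without it. A total of 22 of the 56 genes also hold small nucleolar RNA genes, 45 in all, in their introns or exons. These divisions describe the set and were not tested.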

How the data were processed

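The titles of the samples gave the groups. Per the labels and the study's methods, the authors tagmented nuclei, trimmed adapters with cutadapt, aligned reads to hg19 with Bowtie (Bowtie2 in the submitters' processing notes) and called peaks for each library with MACS2 at default settings; versions were not given in the sources used here. The deposited lists give chromosome, start, end, name and a score of unstated scale per peak, and the authors' start and end gave the widths. No offset for the Tn5 insertion was stated, so edges may lie some bases off.

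Peaks were linked with an overlap of at least 1 bp to 1 kb on each side of every TSS in GENCODE 44 lifted to hg19. All 56 symbols matched. The members and all lists were chosen with earlier results of these data known. Genes named with values were those missing a peak in a library, the 6 largest differences in each direction, the 4 widest, 4 narrowest and 4 lowest, and a textbook list. A gene was called different where both libraries of a group lay above both of the other. Groups were compared by a two-sided exact permutation test over libraries, which counts the divisions of the libraries that give a difference at least as large. The study's text calls the ATAC-seq replicates independent and biological, while the labels name no separate cultures. The p-values therefore refer only to these samples, and they do not measure a spread. The link and the percentiles were tested on simulated peaks. Python 3.11.15, numpy 2.4.6, pandas 2.3.3, pysam 0.24.0, samtools 1.23.1 and matplotlib 3.10.9 were used. The alternatives covered the TSS set, window, overlap, list length, score threshold, peak choice, comparison genes and each library left out. Sequences came from the hg19 reference, and coordinates are 1-based. Some markers of other cell types are not reported here.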

Additional observations from a re-analysis of the deposited data

How the results depend on the processing

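The 50 genes with a peak in all 4 libraries, the median width and the median differences of 7.99 (score) and 5.82 points (width) kept their direction in every alternative that gave them. With an equal number of peaks the differences were 4.45 and 3.83 points, and without single libraries the score difference ranged from 4.90 (without control replicate 2) to 8.42. Its excess over other genes of 4.59 points was 2.93 with equal numbers, 9.63 with missing peaks set to 0 and 1.54 without ATRA replicate 1. The count of 29 genes with ATRA above control was 18 of 48 with an equal number of peaks (against 26.8% of other genes). It was 19 of 37 among the better-scoring 50% of each list (against 36.5%) and 20 of 50 among promoter peaks (against 29.7%). The count of 1 below was 4 with equal numbers and 3 among promoter peaks. It was 4 to 6 without single libraries, where a lone library makes separation easier. Shares of other genes below are not given for these settings. The median score percentile of 83.3 became 78.4 among those 50%, 66.2 among promoter peaks, 78.2 with missing peaks set to 0 and 78.5 without genes that have a neighbouring start site, an alternative chosen after seeing the data. The difference in that median from other genes, -1.05, reversed to 46.3 with missing peaks set to 0, because the other genes more often lack a peak, ranged from -2.88 to 0.999 without single libraries (reversed without control replicate 2) and was -5.86 without neighbouring start sites. The excess of 43.2 percentage points in genes with a peak in all libraries was 45.8 with coding transcripts, 48.6 with 1 TSS, 31.9 among those 50%, 31.1 against genes with as many TSS, 2.11 against mitochondrial ribosomal protein genes, 48.8 without neighbouring start sites and 42.2 to 46.4 without single libraries. Other causes were not tested. The replicate block left both differences at 7.99 and 5.82 points, since it averages the same 4 values. Replicate numbers showed a correlation of deviations of 0.144 over 9301 genes. With 2 pairs only, this cannot show whether same-numbered samples were prepared together. Of the 50 genes, 34 were higher and 1 lower with ATRA in both same-numbered pairs. That count is not given for the 9251 other open genes, of which 6806 had the higher ATRA mean. Depth was unknown, and the list length of ATRA replicate 2 limits comparisons between groups.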
